A study of Mus musculus with 33 samples.

Results

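The CyrMut comparison of experiment 1A covers 7 of the 33 libraries of the series, 3 from wild-type (WT) and 4 from CyrMut cerebellum, chosen by the genotype, tissue and experiment in their labels. All 7 mice were male C57Bl/6J mice aged 1 month, and CyrMut mice carry a mutated miR-7 site in Cyrano, a long noncoding RNA annotated as 1700020I14Rik. Which bases were changed, and whether the mice were littermates or shared a processing day, is not stated by the labels or the design text. The submitters describe the libraries as biological replicates, made from polyadenylated RNA with a strand-keeping kit. Levels are CPM, the counts of a gene per 1 M counts of its library after TMM scaling, given with the SD between libraries. Changes are the log2 ratio of CyrMut to wild type, each with its standard error (SE), and a gene passed the edgeR quasi-likelihood test at an adjusted p under 0.05.

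MicroRNAs guide Argonaute proteins to messenger RNAs by pairing of the seed, bases 2 to 8 of the microRNA, with a match in the 3′ UTR, and the paired RNA is usually repressed. miR-7 is a conserved microRNA of neurons and neuroendocrine cells. Cyrano holds a site that pairs with miR-7 far beyond the seed and is known to direct the destruction of miR-7. Cdr1as is a circular RNA of neurons with a long array of miR-7 seed matches and 1 near-complete site for miR-671, which can cut it.

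The sequences of this network are shown because the mutation is in a miR-7 site and Cdr1as, the RNA that fell, holds many miR-7 matches. The part of these sites in the fall was not tested. The mature microRNAs, from RefSeq (GRCm38.p6), are written with the seed in capitals. The miR-7 forms share their seed, and counted from the 5′ end of miR-7a they first differ by A10T (with T for U).
mmu-miR-7a-5p: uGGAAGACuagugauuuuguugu
mmu-miR-7b-5p: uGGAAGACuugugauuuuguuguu
mmu-miR-671-5p: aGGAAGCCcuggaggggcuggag
The wild-type Cyrano site lies at chr2:119602137-119602161 (+ strand, GRCm38, exon 3 of the transcript 1700020I14Rik-202 in GENCODE M21), and capitals mark bases that pair with miR-7a. It joins an 8-base seed match to a run of 13 bases that pairs with bases 11 to 23 of miR-7a, with 4 Cyrano bases and 2 miR-7 bases unpaired between them.
Cyrano miR-7 site: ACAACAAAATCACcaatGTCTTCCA
The transcript, 8300 bases long, holds 1 other 8-base match, GTCTTCCA. In the 30 bases that end with that match, no run of 4 or more further pairs stands upstream of it. The deposited Cdr1as feature carries no coordinates. The annotated exon that spans the Cdr1 locus, on the + strand of chromosome X (61183248 to 61186174, 2927 bases, an exon of C230004F18Rik), holds 130 matches of 7 or 8 bases, of which 123 contain GTCTTCC, with a median spacing of 18 bases. A stretch from the middle of this exon, chrX:61184683-61184772, shows the repeat, with 4 copies of GTCTTCC in capitals. The window of the same exon with the most pairs to miR-671-5p, 19 of 23 bases against 17 in the next best window, is at chrX:61186029-61186051, and its pairing bases are in capitals.
Cdr1as repeat: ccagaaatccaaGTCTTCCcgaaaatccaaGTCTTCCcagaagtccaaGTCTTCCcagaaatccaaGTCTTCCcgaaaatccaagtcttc
Cdr1as miR-671 site: tTCCAGCatCTCCAGGGCTTCCa

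The 7 libraries held 12.58 to 24.94 M counts, and 6.72% to 8.14% of them were in the 10 most abundant features. Libraries of 1 group differed from each other by more than sampling noise in every pair. Cerebellar markers were abundant in all of them, among them Cbln3 of granule cells (1613 to 1905 CPM) and Car8 of Purkinje cells (1526 to 1697 CPM), while the forebrain factor gene Emx1 had 4 counts in the 7 libraries together. The libraries differed in choroid plexus content within each genotype. The mean log2 level of 19 choroid plexus markers, centred over the 7 libraries and called the choroid plexus index here, was 1.55, 1.86 and 1.34 in CyrMut replicates 1, 3 and 4, 0.39 in WT replicate 1, and -1.74, -1.66 and -1.73 in WT replicates 2 and 3 and CyrMut replicate 2. Among the 500 most variable genes, the first principal component held 56.3% of the variance and set the libraries into the same 3 tiers, with scores of 12.6 to 14.7 in CyrMut replicates 1, 3 and 4, 2.42 in WT replicate 1, and -12.5 to -16.1 in the other 3 libraries. Its largest loading belonged to Ttr, the thyroid hormone carrier made by choroid plexus epithelium. Results are therefore given beside this index where they move with it, and with it as a covariate in the fit.

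Cdr1as fell 10.1-fold in CyrMut. It was at 1226, 1057 and 1044 CPM in the WT libraries and at 122, 111, 94.7 and 113 CPM in the CyrMut libraries. The CyrMut libraries, high or low in choroid plexus index, sat together far below all WT libraries. The mean level went from 1109 ± 101 CPM (SD, n = 3) to 110 ± 11.5 CPM (n = 4), 9.93% of the wild-type level in the fit (log2 change -3.33, SE 0.09, adjusted p = 9.75e-09). With the index as a covariate the change was -3.37 (SE 0.11, adjusted p = 2.02e-07). Cdr1as has no poly(A) tail as a circle, so its level here counts what came through poly(A) selection in every library. It was the only 1 of 14866 genes tested that passed, which is 0.00673% of them, while 740 genes had an unadjusted p under 0.05. DESeq2 called 4 genes, as did the authors' deposited table.

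**Figure D1:**
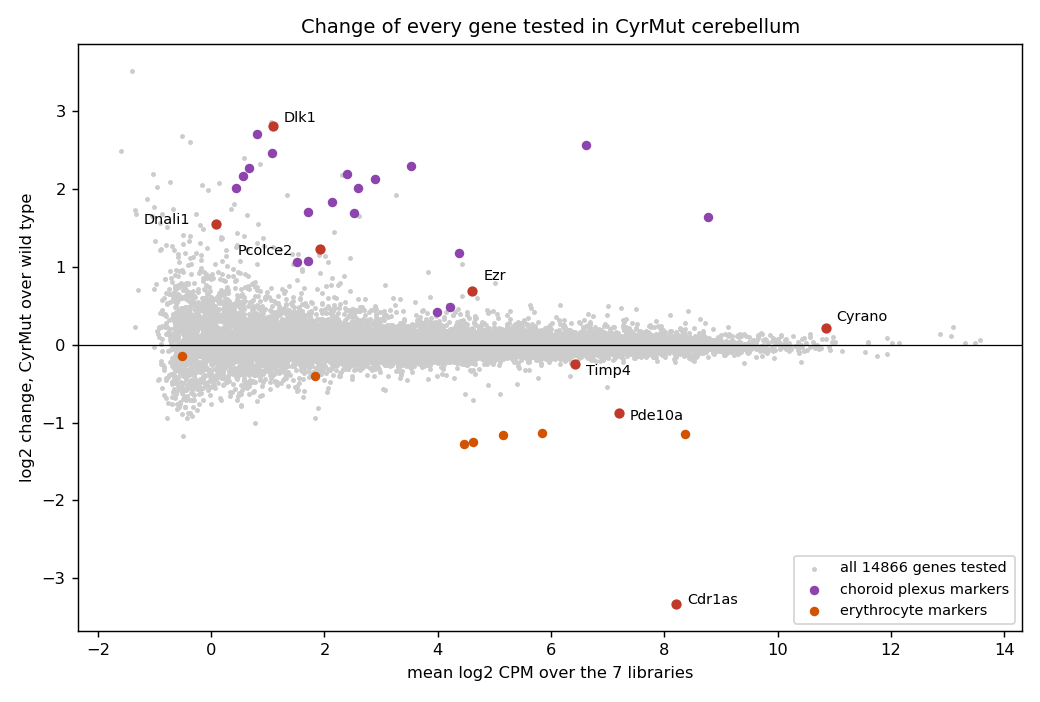
Log2 change of CyrMut over wild type (vertical axis) against mean log2 CPM over the 7 libraries (horizontal axis) for each of 14866 genes tested, one point per gene. Cdr1as lies at -3.33, apart from every other gene of similar level, the choroid plexus markers (purple) lie above 0, and the erythrocyte markers (orange) lie below 0.

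The other measured RNAs of the network showed no comparable shift. Cyrano was at 1873, 1661 and 1557 CPM in WT and 1999, 1924, 1937 and 1987 CPM in CyrMut, so the groups did not overlap. Its change of 0.21 (SE 0.061) did not pass (adjusted p = 0.944), and the count does not check the genotype, since altered bases need not alter the amount of a transcript. C230004F18Rik, the lincRNA gene that spans the Cdr1 locus (chromosome X, 61116378 to 61292484), was at 21.8, 13.3 and 13.8 CPM in WT and 20.03, 13.6, 14.4 and 16.8 CPM in CyrMut. Its groups overlapped, with a change of -0.02 (SE 0.18), and its highest libraries were WT replicate 1 and CyrMut replicate 1. Hnrnpk, an RNA-binding protein gene that hosts the microRNA gene Mir7-1 in an intron, was at 165 to 180 CPM in WT and 166 to 173 CPM in CyrMut (change -0.03, SE 0.05). Mature microRNAs are not measured in these libraries: the precursor genes had 12 counts (Mir7-1), 0 counts (Mir7-2) and 0 counts (Mir7b) in the 7 libraries together and were not tested.

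Dlk1 had the smallest p after Cdr1as. It encodes a membrane protein related to the Notch ligands and is an imprinted gene of chromosome 12 (109452823 to 109463336, + strand). It was at 0.66, 0.36 and 1.18 CPM in WT (15, 9 and 15 counts) and at 6.32, 2.82, 4.67 and 4.795 CPM in CyrMut (105, 38, 102 and 77 counts). All CyrMut libraries lay above all WT libraries, and the lowest of them was CyrMut replicate 2. The fitted level was 7.03 times that of wild type (log2 change 2.81, SE 0.36), just short of the threshold with edgeR (adjusted p = 0.0634) and past it with DESeq2 (adjusted p = 5.78e-10). The authors' deposited table gives Dlk1 a log2 change of 2.78 with an adjusted p of 5.76e-10. With edgeR it passed without WT replicate 3 (adjusted p = 0.039) or without CyrMut replicate 2 (adjusted p = 0.0109), and with no low-count filter (adjusted p = 5.97e-07). The 3 libraries with the lowest choroid plexus index kept this order, since CyrMut replicate 2, at 2.82 CPM, was above WT replicates 2 and 3 (0.36 and 1.18 CPM). With the index as a covariate its change was 2.399 (SE 0.39, unadjusted p = 8.99e-05, adjusted p = 0.668).

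The neighbours of Dlk1 in its imprinted domain did not move with it. The maternally expressed noncoding RNAs Meg3, Rian and Mirg had changes of 0.02 (SE 0.054), 0.02 (SE 0.052) and 0.03 (SE 0.13), with Meg3 at 4392 to 4657 CPM in WT and 4285 to 4883 CPM in CyrMut. Rtl1 and Dio3, other protein-coding genes of the domain on the list, had 9 and 15 counts in the 7 libraries and were not tested. Begain, a further protein-coding gene listed with the domain and named after its value was seen, had a change of 0.04 (SE 0.099). Of 18 genes of the domain and of Notch signalling that were tested, 0 passed, and 2 were higher at an unadjusted p under 0.05, against 3.26% of all genes tested in that direction. They were Dlk1 itself, around which the list was built, and the receptor gene Notch2. Notch2 was at 35.3 to 38.8 CPM in WT and 39.2 to 49.3 CPM in CyrMut (change 0.27, SE 0.084). The Notch target Hes1 was at 4.45, 2.497 and 2.52 CPM in WT and 4.15, 4.01, 4.67 and 4.55 CPM in CyrMut, with overlapping groups, and the ligand-like Dner had a change of -0.01 (SE 0.049). The median change of the 18 genes, Dlk1 included, was 0.03, beside a median of -0.0027 over all genes tested.

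Pde10a, a phosphodiesterase of cAMP and cGMP best known from striatal projection neurons (chromosome 17, 8525372 to 8986648), was lower in all CyrMut libraries, but its WT libraries were spread. It was at 248, 146 and 239 CPM in WT and at 135, 113, 115 and 98.0 CPM in CyrMut. The groups did not overlap, and WT replicate 2 lay nearer to the highest CyrMut library than to the other WT libraries. The change was -0.87 (SE 0.16, unadjusted p = 1.96e-04), or 54.6% of the wild-type level, and did not pass (adjusted p = 0.704, and 0.17 with DESeq2). It passed without WT replicate 2 (change -1.08, SE 0.1, adjusted p = 0.00657) and with no low-count filter (adjusted p = 2.06e-05). WT replicates 1 and 3, with an index of 0.39 and -1.66, had similar Pde10a levels, while WT replicate 2, at -1.74, had a lower one. With the index as a covariate the change was -0.98 (SE 0.19).

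No other gene of cyclic nucleotide turnover on the list passed. Of 25 phosphodiesterase and adenylyl cyclase genes tested besides Pde10a, 2 were higher and 1 lower at an unadjusted p under 0.05 (3.26% and 1.72% of all genes in these directions), and the median change was -0.004. Adcy1, the calcium-stimulated cyclase abundant in granule cells, was at 3619 to 3728 CPM in WT and 3174 to 3513 CPM in CyrMut, with a change of -0.14 (SE 0.048). Pde1c was at 257, 170 and 189 CPM in WT and 167 to 211 CPM in CyrMut, and Pde5a at 143 to 161 CPM and 143 to 163 CPM. Of 12 striatal genes, 5 were not tested, among them the dopamine receptor gene Drd2 and the tachykinin gene Tac1, with 52 and 41 counts in the 7 libraries together. The other 7 had a median change of 0.01, among them Ppp1r1b at 91.5 to 101 CPM in WT and 91.7 to 101 CPM in CyrMut.

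Ezr encodes ezrin, which links the cell membrane to actin and is abundant in the microvilli of epithelia, choroid plexus included (chromosome 17, 6738041 to 6782784, - strand). It was at 20.7, 18.03 and 17.6 CPM in WT and at 31.2, 21.9, 35.2 and 32.3 CPM in CyrMut. The CyrMut libraries with a high choroid plexus index were the high ones, WT replicate 1 was the highest WT library, and CyrMut replicate 2 lay just above it. The change was 0.69 (SE 0.14, adjusted p = 0.704), and DESeq2 called it (adjusted p = 0.0183), as did the authors' deposited table (log2 change 0.68, adjusted p = 0.0184). With the covariate the change was 0.39 (SE 0.097, unadjusted p = 0.00231). The part of choroid plexus content in this difference was not tested. With edgeR Ezr passed without CyrMut replicate 2 (change 0.81, adjusted p = 0.0176) or with no low-count filter (adjusted p = 0.00488). The related protein genes Rdx (radixin) and Nf2 (merlin) had changes of 0.06 (SE 0.072) and -0.06 (SE 0.051). Of 13 genes of ezrin's family and partners, 0 passed and 2 were higher at an unadjusted p under 0.05 (3.26% of all genes tested). They were Ezr itself, around which the list was built, and the kinase gene Rock1. The Rock1 libraries ran from 48.8 to 87.1 CPM in WT and from 82.4 to 86.3 CPM in CyrMut.

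Pcolce2, which encodes an enhancer of procollagen processing (chromosome 9, 95637601 to 95698096, + strand), was called by DESeq2 and in the authors' deposited table but not by edgeR with all 7 libraries and the low-count filter. It was at 2.34, 2.18 and 2.52 CPM in WT and at 5.83, 3.49, 7.42 and 4.73 CPM in CyrMut. The groups did not overlap, and CyrMut replicate 2 was again the lowest CyrMut library. The change was 1.23 (SE 0.24, adjusted p = 0.704), 0.85 (SE 0.24) with the covariate, and 1.21 with an adjusted p of 0.0214 with DESeq2. With edgeR it passed without CyrMut replicate 2 (change 1.38, adjusted p = 0.0332) or with no low-count filter (adjusted p = 0.00488).

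The plot of levels in each library sets these genes beside the other cerebella of the series, each experiment scaled on its own, so that levels across experiments are a description. Across the 11 WT cerebella of the 3 experiments Dlk1 ran from 0.10 to 1.38 CPM, below all 4 CyrMut libraries. Ezr ran from 16.6 to 25.5 CPM in these WT libraries. The WT library with the most Ezr was the one with the most Ttr (314 CPM), but the order of the others differed. WT replicate 3 of experiment 1B had 21.2 CPM of Ezr at 0.94 CPM of Ttr. WT replicate 1 of experiment 1A had 20.7 CPM of Ezr at 286 CPM of Ttr. Pde10a ran from 99.0 to 248 CPM, and 3 of the 4 CyrMut libraries fall within that range. Ttr ran from 0.36 to 314 CPM.

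**Figure D2:**
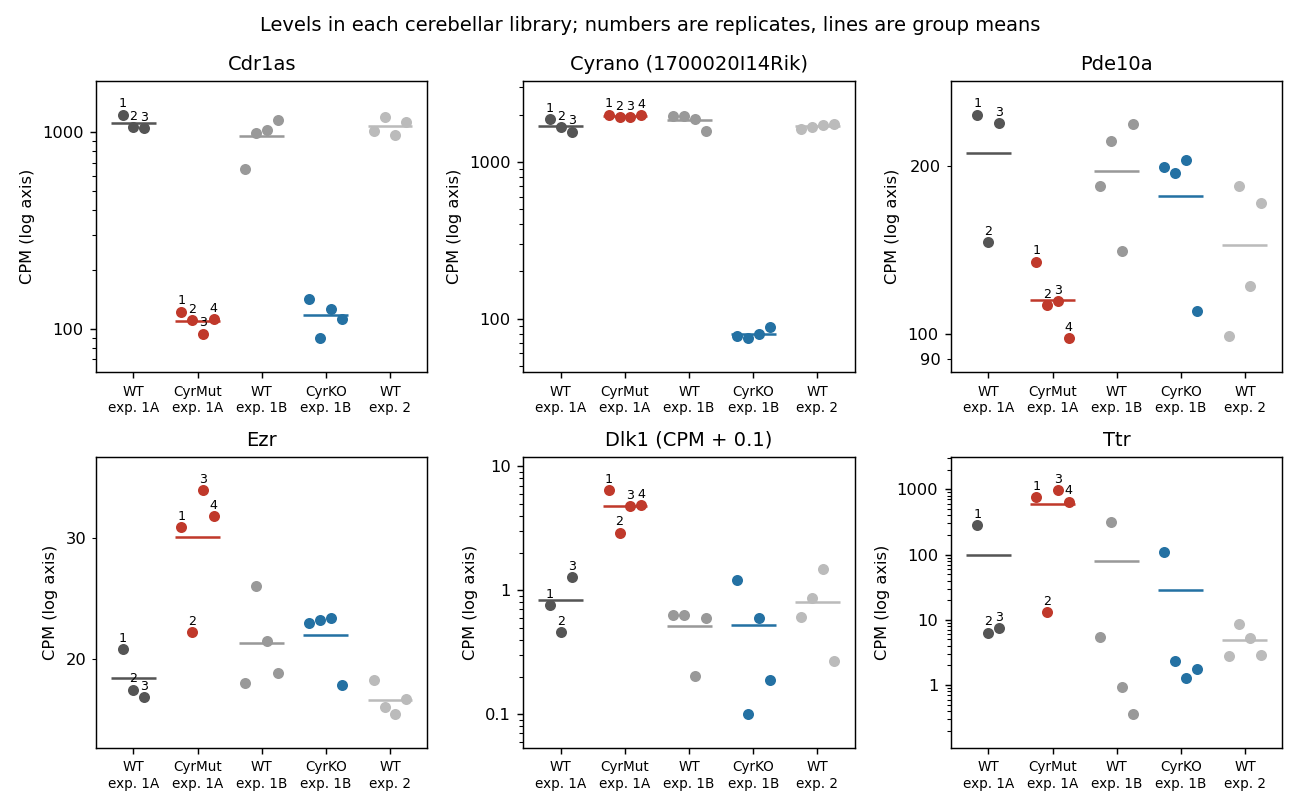
CPM on a log axis in each cerebellar library of WT and CyrMut (experiment 1A), WT and CyrKO (experiment 1B) and WT (experiment 2), with 1 point per library, lines at group means and replicate numbers in experiment 1A. Cdr1as separates CyrMut and CyrKO from all WT libraries, Dlk1 is at 2.82 CPM or more in CyrMut and at 1.38 CPM or less elsewhere, Pde10a of CyrMut overlaps WT of experiment 2, and Ttr is high in 3 of 4 CyrMut libraries.

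Genes with a seed match to miR-7 may change if miR-7 does, so sites in the 3′ UTRs were set beside the values. Ezr has 2 such matches in its 3′ UTR of 1262 bases, Pde10a 1 in 4992 bases, Pcolce2 1 in 3000 bases, and Dlk1 0 in 2976 bases, where 26.9% of the tested genes with an annotated 3′ UTR hold at least 1 match of 7 or 8 bases (GTCTTCC, the shifted match TCTTCCA, or both together as GTCTTCCA, searched on the transcript strand). The first match of each is printed with capitals on the match, since these 3 genes did not share a direction: Ezr and Pcolce2 were higher and Pde10a lower in CyrMut.
Ezr site (chr17:6738361-6738385, - strand): cgttttcagtttGTCTTCCttcctt
Pde10a site (chr17:8984563-8984587, + strand): agtgaactctgcTCTTCCAagtgtg
Pcolce2 site (chr9:95697910-95697934, + strand): agcactgactgcTCTTCCAgatgaa

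The medians of genes with and without a match lay close together, and the libraries of the groups overlapped. The median change was -0.0120 for 582 genes with an 8-base match, 0.0003 for 3059 genes with a 7-base match, -0.0013 for 5206 genes with a 6-base match and -0.0073 for 4687 genes with none. No gene of these classes passed the edgeR test, and DESeq2 called Ezr, Pcolce2 and Dlk1 among them. Of the genes with an 8-base match 56.5% had a negative change, beside 50.9% of all genes tested, and 3.26% were higher and 2.92% lower at an unadjusted p under 0.05. The shares in these directions were 3.26% and 1.72% of all genes tested, and 3.22% and 1.81% of genes with no match. Library by library, the median of 8-base genes minus that of no-match genes, each relative to the gene's mean over the libraries, ran from -0.0240 to 0.0289 in WT and from -0.0167 to 0.0073 in CyrMut; the ranges overlap. With the covariate the medians were -0.0121 for 8-base matches and 0.0037 for no match. Of 13 reported miR-7 targets tested, 0 passed, 0 were higher and 1 was lower at an unadjusted p under 0.05 (3.26% and 1.72% of all genes tested). That was the NF-κB subunit Rela, at 31.2 to 33.7 CPM in WT and 26.3 to 31.1 CPM in CyrMut (change -0.18, SE 0.077), while the kinase Pak1 had a change of -0.12 (SE 0.057) and the transcription factor Pax6 one of -0.01 (SE 0.062).

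**Figure D3:**
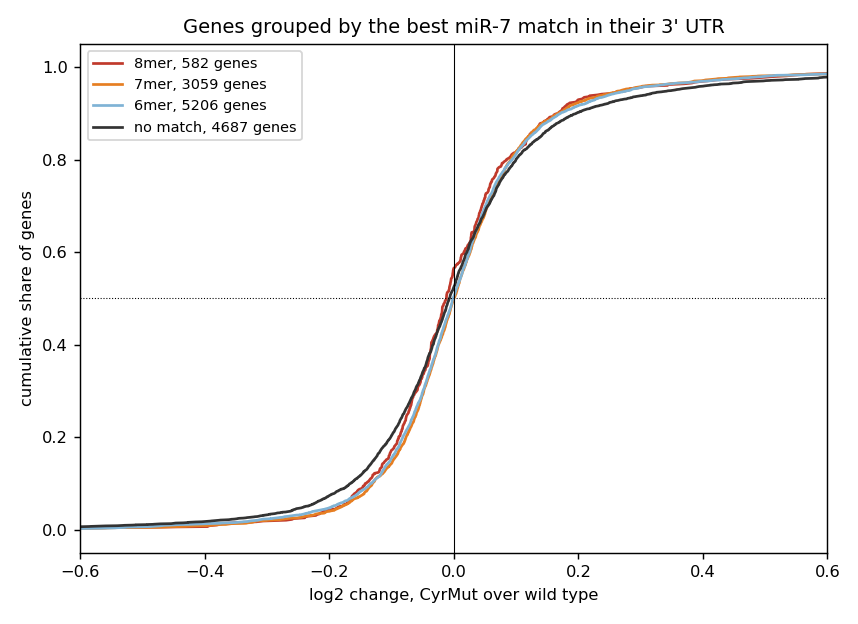
Cumulative share of genes (vertical axis) by log2 change of CyrMut over wild type (horizontal axis), for genes whose longest 3′ UTR holds an 8-base, a 7-base, only a 6-base or no seed match to miR-7. The 4 curves cross the middle of the scale between -0.0120 and 0.0003, and the no-match curve is the widest.

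The most widespread difference between the libraries was in choroid plexus genes. The choroid plexus is the secretory epithelium of the ventricles that makes cerebrospinal fluid, and a tuft of it in the fourth ventricle adjoins the cerebellum. All 19 markers were tested. None passed, 16 of 19 were higher at an unadjusted p under 0.05 (3.26% of all genes tested), and the median change was 2.01. Ttr was at 286, 6.38 and 7.49 CPM in WT and at 764, 13.2, 967 and 647 CPM in CyrMut. Enpp2, which encodes autotaxin, was at 480, 155 and 173 CPM in WT and at 971, 205, 1308 and 886 CPM in CyrMut. Kl, the klotho gene, was at 21.4, 1.51 and 1.58 CPM in WT and at 50.8, 2.67, 65.1 and 48.3 CPM in CyrMut. In each of these CyrMut replicates 1, 3 and 4 were highest, WT replicate 1 came next and the other 3 libraries were low, so WT and CyrMut overlapped.

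Summed over the 19 markers, the level ran from 220 to 895 CPM in WT and from 268 to 2620 CPM in CyrMut. Only Otx2, a homeobox gene also made by cerebellar granule cells in development, had groups that did not overlap, at 12.6 to 14.2 CPM in WT and 14.4 to 21.9 CPM in CyrMut (2.66% of all genes tested did not overlap with CyrMut higher, and 2.72% with CyrMut lower). In these bulk samples, fewer or more cells of a type and less or more RNA per cell cannot be told apart, nor can attached choroid plexus tissue and a change within it. With the index as a covariate the median change of the markers was -0.02, as it must be close to 0 when their own mean is the covariate. Of the genes at a mean of at least 1 CPM with an unadjusted p under 0.05, 415 were higher and 235 lower in CyrMut. With the covariate, 80 of the 415 and 52 of the 235 kept an unadjusted p under 0.05 in the same direction. The median change went from 0.422 to 0.243 for the 415 and from -0.225 to -0.198 for the 235. The index runs partly with genotype, so the fit that holds it has less power, and these counts do not measure its part. Of the 415, 165 were no higher in CyrMut replicate 2 than in the highest WT library. Of the 235 lower genes, 46 were within the WT range in CyrMut replicate 2.

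**Figure D4:**
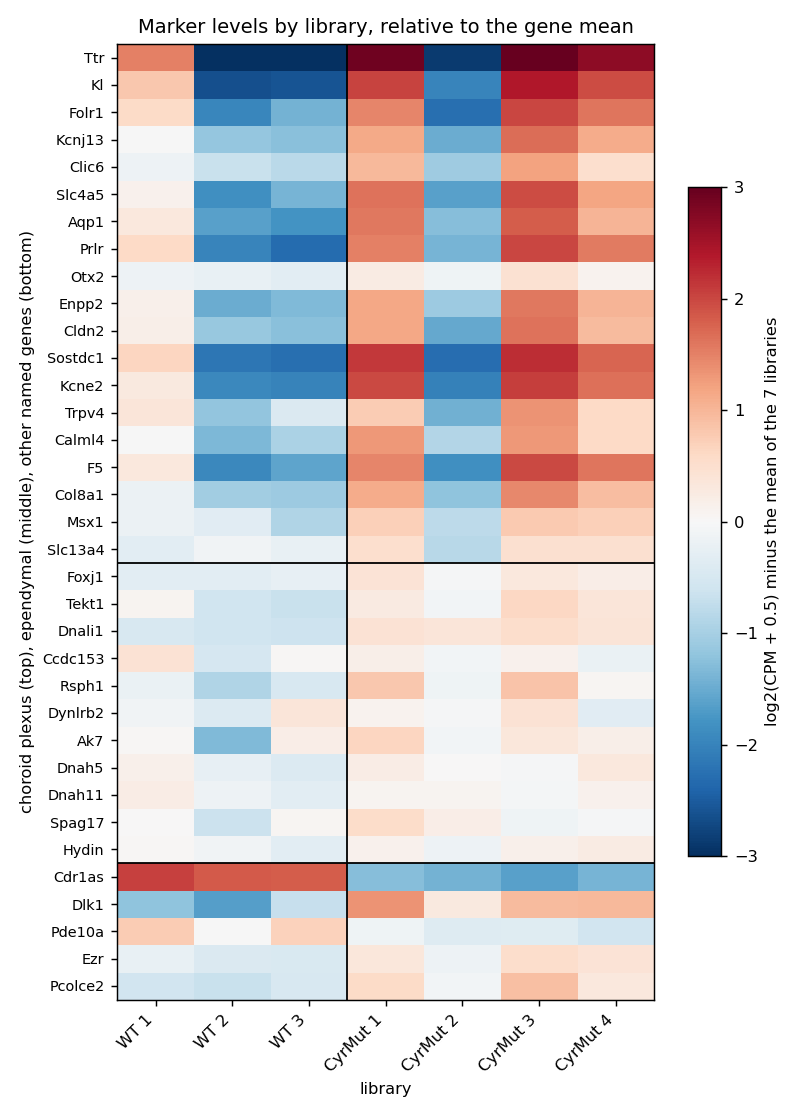
Log2(CPM + 0.5) of each gene minus its mean over the 7 libraries, for 19 choroid plexus markers (top), 11 ependymal and cilia genes (middle) and 5 other named genes (bottom). The choroid plexus rows are red in CyrMut 1, 3 and 4, pale in WT 1 and blue in WT 2, WT 3 and CyrMut 2, a split that the Cdr1as row does not follow.

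Ependymal cells form the ciliated lining of the ventricles. Of 11 of their genes tested, 0 passed and 4 were higher at an unadjusted p under 0.05 (3.26% of all genes), with a median change of 0.59, or 0.32 with the covariate. Dnali1, an axonemal dynein gene, was at 0.57, 0.48 and 0.47 CPM in WT (13, 12 and 6 counts) and at 1.504, 1.41, 1.65 and 1.43 CPM in CyrMut (25, 19, 36 and 23 counts). CyrMut replicate 2 was as high as the others (change 1.55, SE 0.24, adjusted p = 0.218, and 1.44 with the covariate). Foxj1, the transcription factor of motile cilia, was at 4.63, 4.64 and 4.89 CPM in WT and at 8.06, 5.79, 7.46 and 6.85 CPM in CyrMut (change 0.59, SE 0.14). Rsph1, of the radial spoke, was at 1.54, 0.75 and 1.18 CPM in WT and 3.61, 1.63, 3.71 and 1.93 CPM in CyrMut, and the most abundant members, Dnah11 and Hydin, had overlapping groups with changes of 0.11 (SE 0.11) and 0.23 (SE 0.12). The summed level of the 11 genes was 55.1 to 73.3 CPM in WT and 68.3 to 79.0 CPM in CyrMut.

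Other genes with small p were low in abundance or small in change, and none passed. Higher in all CyrMut libraries than in any WT library were Spata18 (0.16 to 0.55 CPM against 1.04 to 1.74 CPM), Gm872 (1.31 to 2.20 against 2.97 to 5.35 CPM), 1700009P17Rik (0.63 to 1.37 against 2.002 to 2.75 CPM) and Cobl, an actin nucleator gene (2.66 to 3.31 against 4.30 to 5.54 CPM). Their changes were 1.99, 1.17, 1.31 and 0.76. Lower in all CyrMut libraries were Rce1, a CAAX protease gene (11.4 to 12.5 against 8.66 to 9.12 CPM), Gm10837 (4.28 to 5.76 against 2.35 to 3.41 CPM), Sh3bgr (11.0 to 12.6 against 8.53 to 9.74 CPM), E530001K10Rik (17.8 to 20.6 against 13.3 to 16.8 CPM) and Strc (1.74 to 1.90 against 0.87 to 1.33 CPM). Timp4, a metalloproteinase inhibitor gene of cerebellar astrocytes, stood out by its narrow spread, at 94.1, 95.2 and 94.7 CPM in WT and 75.2, 80.8, 81.7 and 81.0 CPM in CyrMut (change -0.25, SE 0.053, adjusted p = 0.707). Over all genes tested, 105 had a fitted level more than 2-fold higher and 8 more than 2-fold lower in CyrMut, and the median size of a change was 0.073 on the log2 scale.

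Marker genes of the main cerebellar cell types differed little between the groups, and none passed. Of 12 granule cell genes, 0 passed and the median change was -0.05, with Cbln3 at 1613 to 1905 CPM in WT and 1638 to 1856 CPM in CyrMut. The lowest of them by change was the NMDA receptor subunit gene Grin2c, at 363, 402 and 435 CPM in WT and 326 to 371 CPM in CyrMut (change -0.21, SE 0.072). Of 12 Purkinje cell genes, 0 passed and the median change was -0.04, with the calcium release channel gene Itpr1 at 3458 to 4108 CPM and 3883 to 4159 CPM. Interneuron genes (10 tested, median change 0.00, Gad1 at 489 to 517 and 501 to 516 CPM), astrocyte and Bergmann glia genes (10 tested, -0.05), oligodendrocyte genes (11 tested, 0.06) and microglia genes (9 tested, -0.06) had 0 members past the test. The same held for 10 endothelial genes (median -0.03), 7 mural genes (0.04) and 12 meningeal fibroblast genes (-0.07). The tight-junction gene Cldn5 had the smallest p among the vascular genes, at 16.8, 18.2 and 15.8 CPM in WT and 12.8, 10.8, 10.9 and 15.5 CPM in CyrMut (change -0.45, SE 0.13). Of 6 genes tested from the list of brainstem and deep nuclei, all had positive changes with 0 passed and a median of 0.17. All 6, among them the neurofilament genes Nefl, Nefm and Nefh, were lowest in WT replicate 2. The mean log2 level of the list, centred over the libraries, was -0.457 there and -0.033 to 0.230 in the others.

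Several gene groups set single libraries apart without separating the genotypes. Hemoglobin genes were high in WT replicate 3 alone: Hbb-bs was at 306, 257 and 1182 CPM in WT and 214 to 323 CPM in CyrMut. The 7 erythrocyte genes had a median change of -1.15 with 0 passed, and of -0.18 without WT replicate 3. Of 15 genes induced by neuronal activity, 12 were highest in WT replicate 2 and 9 of these were also lowest in WT replicate 3. The orphan receptor gene Nr4a2 was 1 of the 9, at 63.8, 110 and 12.2 CPM in WT and 65.4, 53.4, 57.6 and 26.4 CPM in CyrMut. The other 3, Arc, Egr1 and Jun, named after their values were seen, had other libraries highest, with Arc at 15.5, 11.9 and 15.4 CPM in WT and 12.6 to 15.7 CPM in CyrMut. Clock output differed as well, with the clock-driven factor gene Tef at 254, 271 and 379 CPM in WT and 347, 393, 375 and 262 CPM in CyrMut, so that WT replicates 1 and 2 and CyrMut replicate 4 were the low libraries. The glucocorticoid-responsive metallothionein gene Mt2 was low in CyrMut replicates 1 and 4 (56.4 and 37.6 CPM) against 89.8 to 115 CPM in the other 5 libraries. Eomes, a marker of unipolar brush cells, was lowest in WT replicate 3 (22.5 CPM) and CyrMut replicate 4 (21.98 CPM), with the other libraries between 41.9 and 104 CPM. Of 15 immediate early, 13 clock, 10 glucocorticoid-induced and 16 microRNA pathway genes tested, 0 passed, and their median changes were -0.32, 0.17, 0.02 and 0.05. In the last group the ubiquitin ligase scaffold gene Cul3 had a change of 0.04 (SE 0.053) and the Argonaute gene Ago2 one of 0.04 (SE 0.085).

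**Figure D5:**
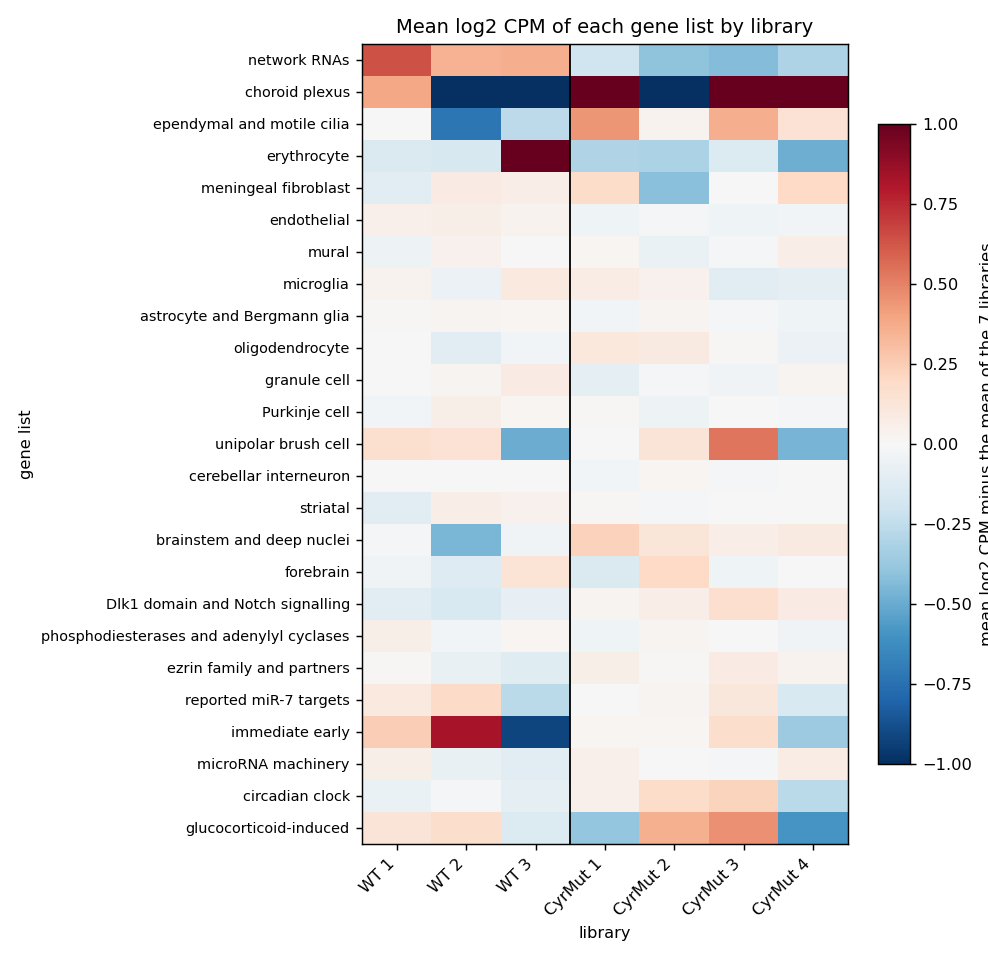
Mean log2 CPM of each of 25 gene lists in each library, minus the mean of the 7 libraries, with colours ending at -1 and 1. The choroid plexus row splits both genotypes, the erythrocyte row is high in WT 3 alone, the immediate early row is highest in WT 2 and lowest in WT 3, the unipolar brush cell row runs from -0.498 in WT 3 to 0.538 in CyrMut 3, and the rows of granule cells, Purkinje cells, interneurons and astrocytes are pale.

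The CyrKO mice of experiment 1B, which lack Cyrano, offer a second measurement with 4 WT and 4 CyrKO cerebella that shares no library with experiment 1A. Cdr1as was at 952 ± 214 CPM in WT (n = 4) and 118 ± 22.3 CPM in CyrKO (n = 4), a change of -3.02 (SE 0.17), and the changes in CyrMut and CyrKO differed by -0.31 (SE 0.22, edgeR interaction, adjusted p = 1). Of 14761 genes tested for a difference between the 2 changes, 2 passed (0.0135%). They were Cyrano itself, with 0.21 in CyrMut and -4.53 in CyrKO, and the mitotic spindle gene Nusap1, with -0.09 and 3.92. For Dlk1 the difference was 2.97 (SE 0.91, unadjusted p = 0.00444), for Pde10a -0.72 (SE 0.28, unadjusted p = 0.0206) and for Ezr 0.64 (SE 0.19, unadjusted p = 0.00389), none of which passed. The changes in CyrKO were -0.15 (SE 0.18) for Pde10a and 0.04 (SE 0.12) for Ezr, and Dlk1 was at 0 to 1.11 CPM in CyrKO and 0.10 to 0.53 CPM in its WT libraries. Pcolce2 differed by 1.59 (SE 0.37, unadjusted p = 4.13e-04), with -0.36 in CyrKO. Ttr was at 1.29 to 109 CPM in CyrKO, and the CyrKO libraries were not matched to CyrMut in choroid plexus content.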

How the data were processed

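The authors deposited whole-number counts of reads per gene, a normalised signal (counts over a size factor of each library), a log2 fold change, its Wald score and a p-value. The submitters' processing notes list STAR 2.4, HTSeq 0.6.1p1, DESeq2 1.10, mm10 and GRCm38. No source used here gives the annotation release or the treatment of strand and multiply matched reads, so near-identical, overlapping or antisense genes are uncertain. In 5 of the 7 libraries the counts exceed the read number in the label, so what that number counts is not known and it was not used. A cell missing from the Myo15 row was restored.

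Tests used edgeR 4.0.16 (R 4.3.3): filterByExpr with minimum count 10, TMM, quasi-likelihood F-test, two-sided, Benjamini-Hochberg adjustment over all genes tested. The SE of a change is its size over the root of F. The biological coefficient of variation was 9.02%. The p-values compare a change with the spread between these libraries and treat the libraries as independent. The labels name no litters, so that independence could not be checked. The choroid plexus index is the mean log2 CPM (prior count 2) of the 19 markers. DESeq2 1.42.0 was the other tool. Steps were tested on simulated data. miR-7 matches were searched in the longest 3′ UTR of protein-coding transcripts (GENCODE M21), and no genome sequence was used.

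The genes and lists were chosen with earlier results of these data known. Named are Cdr1as, Dlk1, Pde10a, Ezr and the network RNAs, genes called by either tool, the 8 smallest p in each direction at a mean of at least 1 CPM, of each of 25 lists at most 4 members by level and 3 by p, and at most 5 by the interaction p. List members too low to test were named after their counts were seen. The results of some genes are not reported here.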

Additional observations from a re-analysis of the deposited data

Results flagged for a closer look

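The gap of the highest or lowest library to its nearest neighbour was examined in 72 sets of 4 libraries, each set being 1 gene or list in 1 group, and 8 had a gap, relative to the whole range, above the critical value of Dixon's test, where chance gives about 1 in 20. In CyrMut the choroid plexus index of replicate 2 was -1.73 against 1.34 to 1.86 in the other 3 libraries. Spata18 in CyrMut replicate 2 was lowest, 1.04 CPM, with the others between 1.65 and 1.74 CPM. Timp4 in CyrMut replicate 1 was lowest, 75.2 CPM, with the others between 80.8 and 81.7 CPM.

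In experiment 1B, Ttr was at 314 CPM in WT replicate 2 against 0.36 to 5.54 CPM, and at 109 CPM in CyrKO replicate 1 against 1.29 to 2.36 CPM. CyrKO replicate 4 was the lowest for Pde10a, at 109.7 CPM against 194 to 205 CPM, and for Ezr, at 18.3 CPM against 22.5 to 22.9 CPM. Dlk1 was at 0.10 CPM in WT replicate 3 against 0.50 to 0.53 CPM, on 1 count against 5 to 7.

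The changes in CyrMut and CyrKO differed past the threshold for Cyrano, 1700020I14Rik (difference 4.73, SE 0.11, adjusted p = 4.41e-15), and for Nusap1 (difference -4.002, SE 0.30, adjusted p = 9.63e-07).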

How the results depend on the processing

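The number of genes past the threshold in CyrMut was 1, Cdr1as, with TMM or RLE scaling, at a mean of at least 1 CPM, and when the choroid plexus index was a covariate. It was 4 with DESeq2 and 43 with no low-count filter, where 35 genes were higher, 9 of them choroid plexus markers, and 8 lower, 5 of them erythrocyte markers; the cause of these counts was not tested. Leaving out 1 library gave 1 to 17 genes: 17 without CyrMut replicate 2, of which 16 were higher and 4 of those choroid plexus markers, and 2 without WT replicate 2 (with Pde10a) or WT replicate 3 (with Dlk1). With the replicate number as a block 1 gene passed, and the block changed no other call. The labels do not state whether the numbers pair the mice. Deviations of same-numbered WT and CyrMut libraries correlated at 0.15, 0.24 and -0.16. Not every library correlated best with its own number, but WT replicate 2 did. So few pairs cannot show whether mice shared a litter or a processing day. The 2 genes that differ between CyrMut and CyrKO were 2 under each of the 12 alternatives run for that test.

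Of 247 alternative values of named genes, 227 kept their side of the threshold, 17 moved past it, 0 fell below it and 3, all of C230004F18Rik, moved by more than the spread. Only the 13 values of Cdr1as could fall below it, since no other gene passed in the main fit. Of 325 list medians 305 moved by less than the spread between libraries. With 3 and 4 libraries and 12.58 to 24.94 M counts, genes near 1 CPM rest on few counts, as in Dnali1 (6 to 36).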
